A study of Mus musculus with 12 samples.

Results

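The regions described here are those in which the mean methylation level of bone marrow progenitors was higher in mice with a mutated Dnmt1 than in wild-type mice. They were chosen by 1 rule, that the mean of the 3 mutant replicates exceeded the mean of the 3 wild-type replicates. The rule found 934 of 107115 candidate regions, or 0.872%, whereas 90 had equal means and 106091 a lower mean. The 934 are called members below. The cells were lineage-negative (lin-) bone marrow progenitors of BALB/c mice, which are marrow cells that lack the surface markers of mature blood lineages. The 12 libraries came from 2 genotypes, labelled wt and dnmt1-/-. Although the second label reads as a null allele, the series describes a specific Dnmt1 mutation designed after hypomorphic missense alleles of fish, and "mutant" is used for it here. Each genotype had 3 replicate numbers, and each number had 1 library made with a bisulfite kit and 1 made with an enzymatic conversion kit. No treatment, age or pooling of animals is given in the sources used here. The labels do not say that replicate numbers are separate animals, so any test measures only the spread between these samples. No marker separates the cell types within the lin- fraction in these data.

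DNA methylation in mammals is found mainly at cytosines followed by guanine (CpG). Dnmt1 copies the pattern of the parental strand onto the daughter strand after replication, so that methylation is passed on through cell division. Most CpGs of the genome are methylated, while CpG-dense promoters (CpG islands) are usually free of methylation in every tissue. Imprinted control regions carry methylation on 1 parental allele. A methylation level is the share of methylated calls over the CpGs of a region, given below in percent, and differences are in percentage points (mutant minus wild type). Candidate regions are those the authors tabulated with the tool metilene. They are not a sample of the whole genome, and a region in them can have changed little.

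Promoter sequences show the DNA of some of these regions, of which 54.5% lay within 1 kb of a protein-coding gene start. The 6 below lie 250 bases upstream of a gene start, 5′ to 3′ on the gene's strand, from RefSeq on GRCm38.p6, the assembly that mm10 names. Capitals mark CpGs. Nradd, Tdgf1 and Gnas stand for regions that were partly methylated in wild type, and Mib2, Pnpla2 and Faap100 for regions that were almost unmethylated there.
Nradd: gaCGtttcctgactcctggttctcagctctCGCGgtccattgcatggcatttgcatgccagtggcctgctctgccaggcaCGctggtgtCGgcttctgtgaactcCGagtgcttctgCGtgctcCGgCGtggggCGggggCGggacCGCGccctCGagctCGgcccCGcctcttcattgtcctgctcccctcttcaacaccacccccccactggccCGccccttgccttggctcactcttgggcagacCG
Tdgf1: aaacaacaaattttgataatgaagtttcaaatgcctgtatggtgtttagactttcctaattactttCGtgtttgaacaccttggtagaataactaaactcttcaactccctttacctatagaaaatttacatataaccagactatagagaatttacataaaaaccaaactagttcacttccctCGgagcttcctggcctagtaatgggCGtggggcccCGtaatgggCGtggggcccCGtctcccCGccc
Gnas: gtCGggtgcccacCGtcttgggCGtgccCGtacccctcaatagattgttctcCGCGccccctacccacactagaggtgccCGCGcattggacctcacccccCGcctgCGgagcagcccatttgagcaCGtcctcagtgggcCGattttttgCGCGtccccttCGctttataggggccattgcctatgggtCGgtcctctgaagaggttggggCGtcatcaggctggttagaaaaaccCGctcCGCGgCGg
Mib2: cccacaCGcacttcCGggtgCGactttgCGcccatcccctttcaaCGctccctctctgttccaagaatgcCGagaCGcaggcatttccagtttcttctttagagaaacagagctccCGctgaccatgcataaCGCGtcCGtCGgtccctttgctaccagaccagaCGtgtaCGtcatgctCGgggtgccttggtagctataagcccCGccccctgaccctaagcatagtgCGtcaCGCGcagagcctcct
Pnpla2: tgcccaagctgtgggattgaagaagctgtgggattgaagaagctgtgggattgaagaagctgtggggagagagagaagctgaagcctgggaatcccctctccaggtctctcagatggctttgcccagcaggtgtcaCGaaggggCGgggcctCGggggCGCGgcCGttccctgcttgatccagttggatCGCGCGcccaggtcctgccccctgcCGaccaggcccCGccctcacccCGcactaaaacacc
Faap100: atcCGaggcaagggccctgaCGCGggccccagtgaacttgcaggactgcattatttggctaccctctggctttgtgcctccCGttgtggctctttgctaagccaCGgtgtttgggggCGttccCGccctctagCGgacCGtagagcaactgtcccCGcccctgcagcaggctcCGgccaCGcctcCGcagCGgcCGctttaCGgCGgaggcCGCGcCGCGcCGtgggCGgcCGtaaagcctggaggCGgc

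The Nradd sequence (chr9:110624394-110624643, minus strand) holds 18 CpGs, and all of them lie inside a region with a higher mutant mean. The Tdgf1 sequence (chr9:110946159-110946408, minus strand) holds 7 CpGs, all of them inside such a region. In the Gnas sequence (chr2:174327499-174327748, plus strand), at a start inside the Gnas gene, 17 of 21 CpGs lie inside the region. Of the almost unmethylated promoters, the Mib2 sequence (chr4:155669255-155669504, minus strand) has 10 of its 19 CpGs in the region. The Pnpla2 sequence (chr7:141454938-141455187, plus strand) has 12 of 12. The Faap100 sequence (chr11:120378747-120378996, minus strand) has 25 of 25. The 6 promoters thus range from 7 to 25 CpGs in 250 bases. The Tdgf1 region (chr9:110946101-110946930), at the gene for the embryonic growth factor Cripto, had 35.2%, 43.2% and 46.7% in mutant replicates 1 to 3 and 33.8%, 22.8% and 37.5% in wild type, and the groups overlapped. The levels of the other 5 are given with the groups below.

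Because the rule used these levels, the differences are given as descriptions. Calls from a fit across all candidate regions are given as counts beside them and, since they use the same values, add no support. Averaged over the 934 regions, the level was 10.5%, 10.9% and 10.9% in mutant replicates 1 to 3 and 8.18%, 8.42% and 8.31% in wild-type replicates 1 to 3. The means were 10.8% ± 0.194 and 8.30% ± 0.121 (SD, n = 3 each), a difference of 2.46 points. The rise was small in most regions: the median difference was 1.17 points, with quartiles of 0.340 and 2.22. Only 521 regions differed by at least 1 point and 123 by at least 5 points. A difference of 10 points was reached by 62 regions, 0.0579% of all candidates, and 4 reached 20 points. Over all candidate regions the median difference was -16.6 points.

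At the limit of the rule, differences were within a fraction of a point. The 5 regions just inside were at Dmpk, Aatk, Hap1, Mrm3 and Kcnc4, with differences of 0.0111, 0.0185, 0.0204, 0.0222 and 0.0222 points. Just outside were the 90 ties, and the nearest regions below them included those at St8sia1, Apoa1, Fzd9 and Ankrd9, with -0.0167, -0.0175, -0.0185 and -0.0190 points. All 9 of these named regions had means under 1% in both genotypes.

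The groups overlapped in most of the 934 regions. All 3 mutant replicates were above all 3 wild-type replicates in 102, which is 0.0952% of candidates. In 318 regions 2 mutant replicates were above every wild-type replicate, and in 443 regions 1 was. A limma fit over all candidates, with Benjamini-Hochberg adjustment, called 52 regions higher (0.0485% of candidates) and 100125 lower (93.5%), and 34 of the 52 were among the 102. Because most candidates were called lower, the adjusted threshold lay close to an unadjusted 0.05. The adjustment thus limits errors among the few higher calls very little. In 519 regions the mutant mean stayed above the wild-type mean when any 1 replicate was left out. No single mutant replicate supplied the high values: the highest mutant value came from replicate 1 in 294 regions, from replicate 2 in 326 and from replicate 3 in 314.

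The wild-type level split the regions into unlike groups. The median wild-type level was 0.407%, against 86.7% over all candidates. At a wild-type level of at most 1% there were 639 of the 934 regions (68.4%), at 1% to 10% 146 (15.6%), at 10% to 80% 128 (13.7%) and above 80% 21 (2.25%). Of the 1190 candidates at a wild-type level of at most 1%, these 639 were 53.7%, with 85 ties and 466 lower. A region near 0% has little room to be lower, and in 180 of the 639 all wild-type replicates were at 0%, where a lower value is impossible. In the other groups a higher mean was rarer: 4.39% of 3324 candidates at 1% to 10%, 0.46% of 27574 at 10% to 80% and 0.03% of 75027 above 80%.

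**Figure D1:**
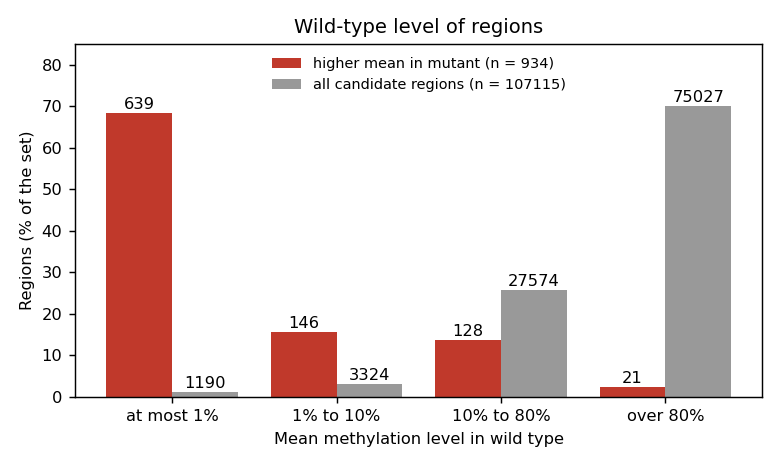
Share of regions (vertical axis, percent of the set) at each wild-type mean level (horizontal axis) for regions with a higher mutant mean (red) and for all candidate regions (grey), with the number of regions above each bar. The red bars are tallest at a level of at most 1% (639 of 934), and the grey bars above 80% (75027 of 107115).

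**Figure D2:**
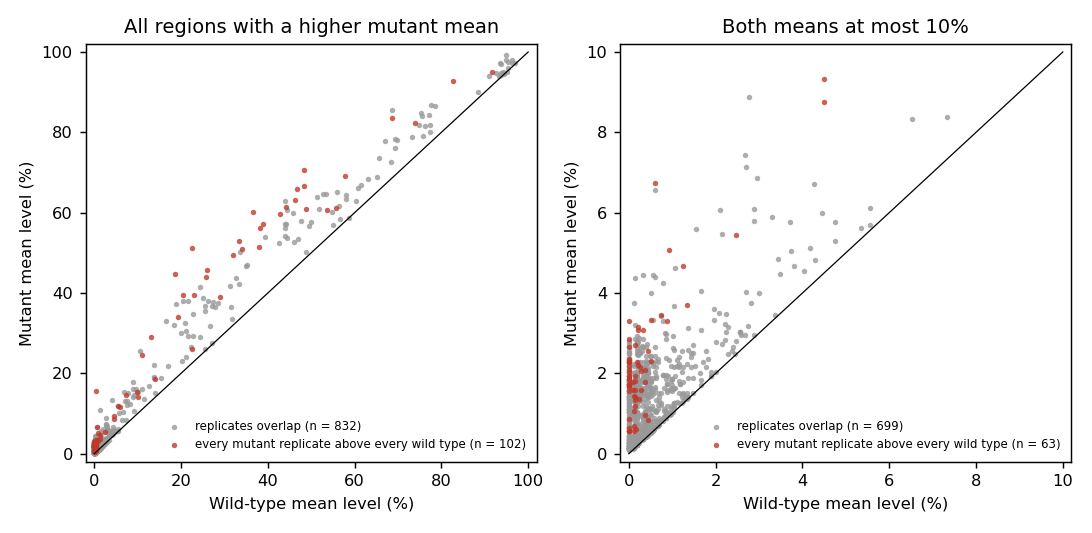
Wild-type mean level (horizontal axis, percent) against mutant mean level (vertical axis, percent) for the 934 regions, each point 1 region and the line equality; the right panel enlarges means of at most 10%. Red points, regions in which every mutant replicate is above every wild-type replicate, are 102 in all, and the points farthest above the line lie at wild-type levels between 10% and 80%.

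Members at a wild-type level of at most 1% differed by about a point, in the direction by which they were chosen. Their mean level was 1.35%, 1.37% and 1.33% in the mutant replicates and 0.292%, 0.264% and 0.266% in wild type, with a median difference of 0.963 points. In 456 of the 639 at least 1 mutant replicate was itself at 0%, and in 163 exactly 2 were, so that the mutant mean of those 163 rests on 1 replicate. All mutant replicates were above all wild-type replicates in 59, and limma called 2. The fit on percent called no region higher that differed by less than 5.56 points, and only 3 of the 639 differed by at least 5. Few of them could thus be called, so nothing is read from the low number of calls. Members at 1% to 10% averaged 4.25%, 5.53% and 4.70% in the mutant and 2.97%, 3.03% and 2.89% in wild type, with a median difference of 0.944 points. Limma called 4 of these 146, of which only 17 differed by at least 5 points.

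The 2 called regions that were nearly unmethylated in wild type lay at Arhgef17, which encodes a guanine nucleotide exchange factor, and Ppp2r2d, which encodes a regulatory subunit of protein phosphatase 2A. The Arhgef17 region (chr7:100894698-100894882) had 10.1%, 11.5% and 25.3% in the mutant and 0.455%, 0.455% and 0% in wild type, a difference of 15.3 points. The Ppp2r2d region (chr7:138846440-138846665) had 5.33%, 4.0% and 10.9% against 1.78%, 0% and 0%. Both were highest in mutant replicate 3, and neither overlapped between genotypes. In this group the Arhgef17 region alone differed by 10 points or more.

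Among separated regions with no methylation in wild type, the largest differences were at Rnf220, which encodes a ubiquitin ligase, at Rps3a1, a ribosomal protein gene, and at Slc25a12, which encodes a mitochondrial carrier. All 3 were at 0% in every wild-type replicate. The mutant replicates had 6.44%, 2.78% and 0.667% at Rnf220, 0.444%, 7.89% and 0.222% at Rps3a1, and 6.44%, 1.11% and 0.444% at Slc25a12. In each of the 3, a single mutant replicate carried most of the difference. Of the promoters printed above, only Mib2 was also at 0% in every wild-type replicate and separated. At Mib2, which encodes a ubiquitin ligase acting on Notch ligands, the mutant replicates had 2.0%, 1.11% and 3.78% and wild type 0%. At Pnpla2, the gene for adipose triglyceride lipase, they had 0%, 6.78% and 1.67%, against 0.556%, 0% and 0%. The Faap100 region, whose gene encodes a subunit of the Fanconi anaemia core complex, had 0.273%, 0.473% and 0.600% against 0.564%, 0.345% and 0.309%, and its replicates overlapped throughout.

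The 128 regions at a wild-type level of 10% to 80% held most of the large differences. Their mean level was 49.7%, 50.7% and 51.6% in the mutant and 39.5%, 41.4% and 40.6% in wild type, and the median difference was 9.30 points with quartiles of 5.35 and 14.2. They supplied 102 of the 123 regions with a difference of at least 5 points, 60 of the 62 with at least 10 points and all 4 with at least 20. Limma called 45 of them, 31 had separated replicates, and 104 kept a higher mutant mean whichever replicate was left out. The other 27446 candidates in this range had a median difference of -23.5 points.

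The 4 regions past 20 points are also the 4 that the authors list as hypermethylated. The largest difference was inside Cracd (C530008M17Rik in the authors' deposited table), a gene for an inhibitor of actin-capping protein. That region (chr5:76857151-76857356) had 67.7%, 43.8% and 42.2% in the mutant and 36.6%, 19.8% and 11.4% in wild type, a difference of 28.6 points. Replicate 1 was the highest of both genotypes there. Inside Pde4d, which encodes an enzyme that degrades cyclic AMP, the region (chr13:109116425-109116578) had 39.7%, 39.7% and 54.9% against 18.5%, 20.8% and 16.5%. The wild-type replicates of Pde4d lay close together, and the difference was 26.1 points. The authors' deposited table gives 13 CpGs for the Pde4d region and 10 for the Cracd region.

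The other 2 lie at gene starts. The region at Vasn (chr16:4640264-4640496), which encodes a cell-surface protein that binds TGF-beta and sits within Coro7, a coronin gene, had 50.4%, 66.2% and 63.6% against 22.3%, 41.9% and 45.7%. Its difference was 23.4 points, and replicate 1 was the lowest of both genotypes. The region at Nradd, a death-domain gene related to neurotrophin receptors, also overlaps Nbeal2, a gene needed for platelet alpha-granules. This region (chr9:110624291-110624831), which spans the Nradd sequence printed above, had 66.3%, 70.1% and 75.7% against 44.7%, 65.6% and 35.0%. The difference of 22.3 points came with a gap of under 1 point between the lowest mutant and the highest wild-type replicate. The authors' deposited table gives 27 CpGs for the Nradd region and 10 for the Coro7 region. Its metilene q-value was 0.00021 for Pde4d, 0.11 for Nradd and 1.0 for both Coro7 and C530008M17Rik. The authors' separate adjusted p-value for mutant against wild type was 7.3e-05 for Pde4d and 0.0042 for Nradd. For Coro7 it was 0.0028 and for C530008M17Rik 0.0017. The label of this adjusted p-value does not name the test that gave it.

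The next 11 separated regions in size differed by 17.1 to 19.7 points. The tightest replicates were at the start of Hoxa2, a homeobox gene of hindbrain patterning. There (chr6:52164273-52164362) the mutant had 50.3%, 52.0% and 56.6% and wild type 34.9%, 31.7% and 33.3%, so the means were 53.0% ± 3.22 and 33.3% ± 1.61 (SD, n = 3). An intergenic region whose nearest gene was Tbx5, 47372 bp away, had 48.0%, 37.6% and 51.3% against 35.1%, 20.5% and 22.5%. In both the groups were apart, and at Hoxa2 the gap was several times the spread.

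The remaining separated regions lay in or at the start of genes of unlike roles. In Eva1a, an autophagy regulator, the levels were 43.2%, 34.2% and 40.8% against 16.1%, 16.6% and 28.8%. In Fdft1, which encodes squalene synthase, they were 54.6%, 70.1% and 59.6% against 53.4%, 51.1% and 28.3%. At the start of Adcy4, an adenylyl cyclase gene, they were 52.2%, 60.1% and 77.4% against 42.0%, 50.4% and 46.1%. Eva1a was the best separated of these 3, while the Fdft1 and Adcy4 groups came within a few points of each other. Regions in Fbxl8 (19 points), Kifc3, a kinesin gene (18.4), a second part of Cracd (18.4), Inpp5f, a phosphoinositide phosphatase gene (18.3), C2cd2l (17.9) and Prrt3 (17.5) completed the set.

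**Figure D3:**
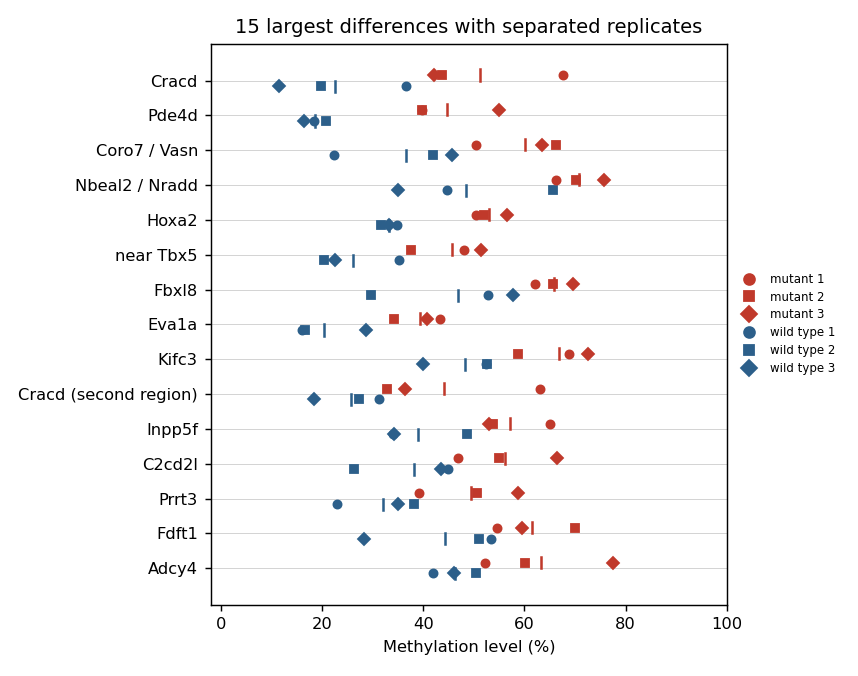
Methylation level (horizontal axis, percent) of each replicate in the 15 separated regions with the largest differences, named by gene, mutant in red above wild type in blue; marker shapes give the replicate number and short vertical lines the means of 3. In every row all red markers lie right of all blue ones, and the Hoxa2 row has the tightest groups.

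A large mean difference also occurred where replicates of 1 genotype were far apart. In Coro2b, a coronin gene, the mutant had 1.0%, 73.1% and 37.7% and wild type 50.2%, 4.36% and 1.73%. Its difference of 18.5 points was smaller than the mutant SD of 36.0 points, and limma did not call it. In Acer2, a ceramidase gene, the values were 72.0%, 42.6% and 74.1% against 51.6%, 49.2% and 31.0%, and limma did not call it either. In both, a mutant replicate lay below the highest wild-type replicate.

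Replicates of both genotypes were farther apart in these partly methylated regions than in the other candidates at 10% to 80%. The median SD between replicates, taken from the values whose means the rule used, was 8.24 points in the mutant and 6.63 in wild type, against 3.72 and 3.13 in the other candidates at 10% to 80%. Length and level moved with this: the members had a median of 190 bp and a median wild-type level of 38.6%, and the others 702 bp and 69.4%. Among regions under 200 bp the medians were 8.24 and 6.41 points in the 67 with a higher mutant mean and 2.58 and 3.99 in the 1141 others. Since the SDs come from the values that chose the members, they are no independent measure. At a wild-type level of at most 1%, the median mutant SD was 1.3995 points in the 639 and 0.257 in the others, and the wild-type SD 0.262 and 0.421. Near 0% a higher mean also requires a non-zero mutant replicate.

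The 21 regions above 80% had 95.2%, 95.5% and 95.9% in the mutant and 93.3%, 93.2% and 93.8% in wild type. One of them stood out in size. At Jakmip1, a gene for a microtubule-associated protein, the region (chr5:37091364-37091624) had 92.7%, 90.2% and 95.8% against 83.3%, 81.9% and 83.1%, a difference of 10.1 points, and limma called it. The region with the highest wild-type mean among separated ones was in Fn1, the fibronectin gene, with 94.2%, 95.3% and 95.5% against 93.5%, 89.8% and 91.9%. The second was that of Jakmip1. Zc3h12d, in the 10% to 80% range, was the third, with 85.3%, 80% and 81.9% against 75.8%, 73.4% and 72.2%.

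The position of the regions was not used by the rule. Promoters, taken as 1 kb either side of protein-coding gene starts, held 509 regions (54.5%), against 6.27% of all candidates. Gene bodies held 322 (34.5% against 64.1%) and intergenic DNA 103 (11.0% against 29.7%). The wild-type level goes along with this: at a level of at most 1%, 67.8% of the 639 and 57.7% of the other candidates lay at promoters. At 10% to 80%, promoters held 21.1% of the 128 and 9.59% of the others, gene bodies 68.75% and 54.4%, and intergenic DNA 10.2% and 36.0%. At 1% to 10% the order was the opposite, with 32.9% of the 146 and 41.1% of the others at promoters. The promoter share thus differed in direction between wild-type levels, and at each of these 3 levels by far less than over all candidates at once.

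**Figure D4:**
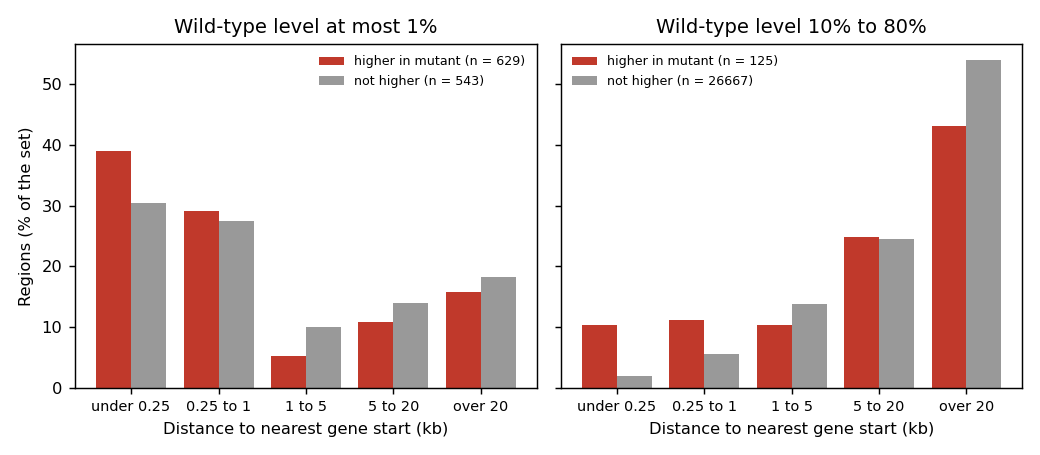
Share of regions (vertical axis, percent) by distance to the nearest gene start (horizontal axis, kb) at a wild-type level of at most 1% (left) and of 10% to 80% (right), for regions with a higher mutant mean (red) and the other candidates (grey). On the left 39.1% of red and 30.4% of grey regions lie within 0.25 kb of a start, and on the right most regions of both colours lie farther than 5 kb.

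The regions were also short, with a median of 142 bp against 660 bp for all candidates, and 65.0% were under 200 bp against 6.08%. The wild-type level goes along with this too. At a level of at most 1% the median was 132 bp in members and 189 bp in the others, with 70.9% and 52.5% under 200 bp. At 1% to 10% members were not shorter, with medians of 203 and 190 bp. The gap was wide at 10% to 80% (190 and 702 bp) and above 80% (95 and 672 bp). The 5 longest were at Mrtfa (1395 bp), Klhl3 (1090 bp), Hap1 (1046 bp), Dmpk (1035 bp) and Faap100 (992 bp). Their differences were between 0.0111 and 0.0424 points, the mean level was under 2% in both genotypes in each, and the replicates overlapped. These 5 were thus nearly unmethylated DNA with almost equal levels. Other long members differed more: the 22 of at least 400 bp at a wild-type level of 10% to 80% had a median difference of 11.7 points.

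Members overlapped 277 of 32851 RefSeq promoter windows (250 bases before to 50 after a gene start), which belong to 258 genes. These windows held a median of 26 CpGs and 65.3% G and C, against 7 CpGs and 52.7% in all windows. The 6-base motif GGGCGG, searched on both strands and itself containing a CpG, was in 206 of the 277 (74.4%) and in 35.7% of all windows. Candidates with a lower mutant mean overlapped 3457 windows with a median of 8 CpGs, of which 32.7% held the motif. When only a wild-type level of at most 1% is taken, the windows of higher and lower regions were alike, with 27 and 23 CpGs and the motif in 76.2% of 239 and 74.1% of 143. The match is a description of letters and shows no bound factor.

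Some regions with a higher mutant mean lay near each other. Within 1 kb of another one were 201 (21.5%), whereas 0.912% of all candidates lay that near to one. Members also lay nearer to candidates of any direction, at a median of 183 bp against 1294 bp over all. Whether they were nearer to each other than this density gives was not tested. At a wild-type level of at most 1% the shares were 19.6% of members and 11.8% of the other candidates. For the 128 partly methylated regions it was 57 (44.5%), against 1.29% of the other candidates at that level. The median distance to any candidate was 156.5 bp for these 128 and 1274 bp for the others. At a level of at most 1% it was 185 bp for members and 144 bp for the others. Neighbours share DNA molecules and are not replicates of each other. Over all members, 55.7% lay within 1 kb of a candidate with a lower mutant mean, against 44.3% of all candidates. At a wild-type level of at most 1% the order was the opposite, with 50.2% of members and 75.5% of the others. The shares were 71.9% and 68.1% at 1% to 10%, and 81.0% and 42.9% above 80%. At 10% to 80% they were 60.2% of the 128 and 44.2% of the others. Within 1 kb of a region the authors list as hypomethylated lay 19.7% of members, against 16.7% of all candidates. At each wild-type level, however, the share of members was below that of the others. It was 21.4% against 37.9% at a level of at most 1%, and 28.1% against 29.0% at 1% to 10%. At 10% to 80% it was 3.91% (5 of the 128) against 22.3%, and above 80% 4.76% against 13.9%. In all, 87 groups of neighbours no more than 1 kb apart held the 201 regions, and 733 regions stood alone. All 19 autosomes held some, at between 0.579% of candidates on chromosome 12 and 1.25% on chromosome 9, and none of the 92 candidates on chromosome X was among them.

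Members overlapped 702 protein-coding genes, and 613 of these had a single one. The 8 genes with the most were Gnas (6 of 21 candidates), Igf2r (6 of 23), Rnf220 (5 of 49), Zfp316 (5 of 17), Cracd (4 of 29), Nfix (4 of 36), Bop1 (4 of 19) and Hoxc6 (4 of 4). Dchs1 also held 4, so this choice of 8 cuts through a tie. In all of these 8 but Hoxc6 most candidates of the same gene were lower. In Cracd with 5 kb on each side, the 4 regions averaged 56.8% ± 12.4 in the mutant and 39.5% ± 8.70 in wild type, while the 26 others averaged 74.7% ± 1.75 and 89.8% ± 0.636 (SD over replicates, n = 3). A gene could thus hold both directions within its span.

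Some members formed compact groups of neighbours. In Rnf220, all 4 candidates in 831 bp (chr4:117304055-117304886) were higher, by 7.89 to 17.1 points. In Nfix, a gene for a transcription factor of blood and brain development, all 4 in 999 bp (chr8:84784130-84785129) were higher, by 5.56 to 13.7 points, and the other 33 candidates of the locus averaged 64.1% in the mutant and 79.8% in wild type. In Zfp316, a zinc finger gene, 5 of 7 in 1642 bp (chr5:143253773-143255415) were higher, by 4.28 to 16.8 points. At Bop1, a ribosome biogenesis gene, and Scx, a tendon transcription factor gene within it, 3 neighbours differed by 5.12 to 12.1 points. Replicates did not move together everywhere: over the 5 Zfp316 members, mutant replicate 1 averaged 17.96%, below the wild-type averages of 18.7%, 20.1% and 22.9%, and limma called 1 of the 5. Over the 5 Rnf220 members, mutant replicate 1 averaged 59.8%, below the 62.0% of wild-type replicate 2. Over the 4 Nfix members it averaged 44.0%, below the 45.3% of wild-type replicate 3. The averages over the 4 members at Bop1 and Scx did not overlap.

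Imprinted genes, expressed from 1 parental allele, were looked up as a list. Members were 22 of 269 candidates (8.18%, against 0.872% over all), at 14 of 36 genes. Of the 269, limma called 5 higher, against 0.0485% over all candidates, and 3 had separated replicates, against 0.0952%. It called 206 of the 269 lower, against 93.5% over all. The median wild-type level of the 22 members was 50.1%. The genes with members were H19, Igf2r, Airn, Kcnq1, Kcnq1ot1, Mest, Plagl1, Grb10, Nespas, Gnas, Inpp5f, Peg13, Trappc9 and Rasgrf1, and overlapping genes share members. The highest difference was only 0.0476 points at Kcnq1 and Kcnq1ot1, 1.63 at Rasgrf1 and 1.85 at Peg13 and Trappc9. At the other genes it lay between 5.07 (Mest) and 18.3 points (Inpp5f).

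Gnas encodes the stimulatory G protein alpha subunit and has several starts with opposite parental methylation. Its 6 members averaged 62.9%, 64.7% and 53.0% in the mutant and 49.4%, 50.03% and 49.2% in wild type. The 15 other candidates averaged 60.2%, 51.9% and 51.8% against 63.6%, 65.6% and 63.0%. The region over the printed Gnas sequence (chr2:174327549-174327764) had 59.9%, 58.0% and 51.0% against 49.8%, 51.7% and 30.3%, with an overlap in mutant replicate 3 and no call. The separated Gnas region (chr2:174299426-174299634) had 74.4%, 69.8% and 63.0% against 49.1%, 62.3% and 61.8%, and limma called it.

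Igf2r encodes a receptor that removes Igf2 from the cell surface, and its antisense transcript Airn starts inside it. All 5 candidates in 607 bp at the Igf2r start (chr17:12769143-12769750) were higher, by 1.42 to 9.86 points, and none was called. The sixth (chr17:12742451-12742629), in the gene, had 63.3%, 62.0% and 56.9% against 52.1%, 54.3% and 54.8%, and was called. The other 25 candidates of the locus averaged 67.6% in the mutant and 82.3% in wild type. At Grb10, an adaptor of growth factor receptors, the single member had 55.9%, 63.5% and 52.0% against 53.9%, 46.4% and 31.6%. It was called, although mutant replicate 3 lay below wild-type replicate 1. At Plagl1, an imprinted zinc finger gene, 80.7%, 55.8% and 57.4% stood against 31.4%, 59.0% and 70.0%, and the groups overlapped.

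Hox genes, which pattern the body axis and include regulators of blood progenitors, had members in 11 of 99 candidates (11.1%), at 10 of 39 genes. Only the Hoxa2 region was called higher, against 0.0485% of all candidates. The Hoxc cluster held 9 of the 11, and at Hoxc6 with 5 kb on each side all 6 candidates were higher. Averaged over these 9, the level was 31.97%, 13.1% and 29.1% in mutant replicates 1 to 3 and 17.8%, 18.01% and 16.3% in wild type. Mutant replicate 2 was the lowest mutant replicate in 6 of the 9 and below every wild-type replicate in 4. The largest was in Hoxc6 (chr15:103010616-103010854), with 54.9%, 5.09% and 53.9% against 27.7%, 16.8% and 16.9%. The 18 other candidates of the cluster averaged 6.09%, 6.82% and 7.87% against 12.6%, 12.8% and 13.7%, and mutant replicate 2 did not stand apart there.

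**Figure D5:**
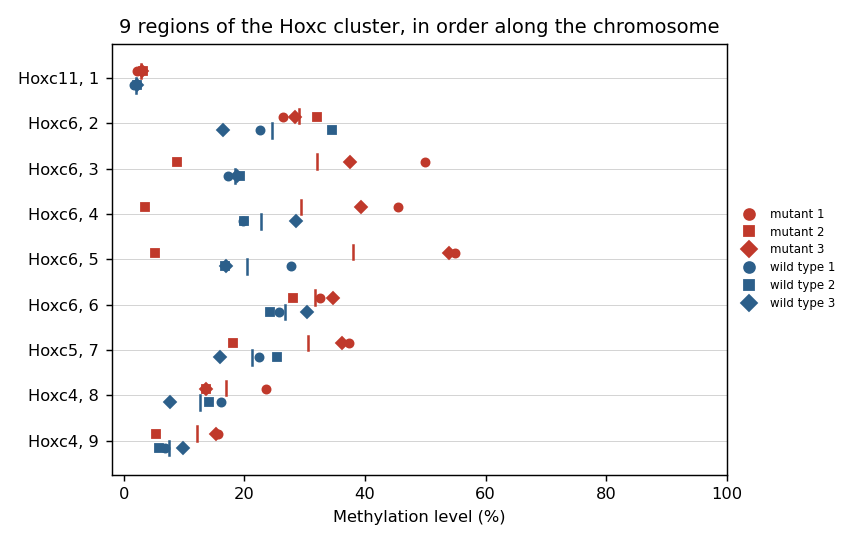
Methylation level (horizontal axis, percent) of each replicate in the 9 Hoxc regions with a higher mutant mean, in order along the chromosome and labelled by gene and rank, mutant in red above wild type in blue; marker shapes give the replicate number and vertical lines the means. In 3 of the upper 5 rows, all in Hoxc6, the red square, mutant replicate 2, lies left of all blue markers, and the other 2 mutant replicates lie right of them.

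A comparable spread was seen at Dchs1, a cadherin gene of planar polarity. Its largest difference (chr7:105762636-105762705) came from 89.0%, 64.0% and 18.2% in the mutant and 43.3%, 52.4% and 37.0% in wild type. The 4 neighbouring regions averaged 58.0% ± 25.4 and 49.1% ± 5.96, and limma called none. The mutant replicates were farther apart than the genotype means.

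Over all candidates, 0.872% were members and 0.0485% were called higher, the shares against which the following small counts stand. Members at genes of blood lineages were 3 of 162 candidates (1.85%) in the lymphoid and B list, 4 of 215 (1.86%) in the T and NK list, 2 of 88 (2.27%) in the granulocyte and monocyte list and 4 of 116 (3.45%) in the erythroid and megakaryocyte list. The stem list had 1 of 239 (0.418%), the stromal and endothelial list 1 of 79 and the list of methylation and silencing genes 2 of 204. The list of developmental transcription factors had 10 of 409 (2.44%) and the germline list 0 of 82. None of these members was called by limma, and with so low an overall share of calls nothing is read from that. At Dnmt1 itself all 28 candidates were lower, as were 106091 of the 107115 over all.

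Individual regions at the lineage regulators named here differed by at most 6.26 points, against a median of 1.17 over all members. At Spi1, which encodes the myeloid and B-cell factor PU.1, the levels were 4.0%, 4.22% and 5.78% in the mutant and 1.56%, 0.333% and 1.89% in wild type. At Tal1, a factor of erythroid and stem cells, they were 7.1%, 7.3% and 11.9% against 4.9%, 4.1% and 4.5%. At Prdm16, a factor of stem cell maintenance, they were 8.56%, 18% and 9.0% against 5.11%, 5.11% and 6.56%. These 3 had separated replicates. At Cebpa, the granulocyte factor, the replicates were also separated, at 0.556%, 0.556% and 3.11% against 0%, 0.444% and 0%. At Pax5, the B-cell commitment factor, 2 of 52 candidates were higher, by at most 1.12 points. At Gata3, a T-cell factor, 1.33%, 5.78% and 0.444% stood against 0.778%, 0% and 0%, and the groups overlapped.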

How the data were processed

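Whole-genome methylation sequencing covered 12 libraries (paired-end, 100 bp reads) on build mm10 (per the submitters' processing notes). No more is known of the aligner, caller or merging of kits, which were not given in the sources used here. Methylation levels were deposited by the authors as fractions for 107115 candidate regions in 6 columns, assigned to genotype by name and turned into percent here. The authors' deposited lists (35439 hypomethylated and 4 hypermethylated regions) give fractions, adjusted p-values and q-values, and a difference of means as a score. No coverage accompanies the levels, so depth is unknown and no counting interval is given. Levels within 1e-06 points were counted as equal. limma 3.58.1 in R 4.3.3 was run on percent over all regions (Benjamini-Hochberg, threshold 0.05) and checked on simulated data. In the simulation few regions changed, equally many up and down, whereas most real candidates were lower. That check therefore does not measure errors among the higher calls. Wild-type classes were chosen after seeing the data. Members and the 11 gene lists were chosen with earlier results of these data known. A list gene counted regions within 5 kb. Regions were named by the authors' list, largest difference with and without separated replicates, extreme wild-type level, length, list, number per gene, nearness to the limit and promoters. CpG numbers of regions came only from the authors' list of 4, so none were compared. Of the 5 regions just outside the limit, 1 is not reported here.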

Additional observations from a re-analysis of the deposited data

How the results depend on the processing

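The number of regions with a higher mean was 521 with a difference of at least 1 point and 123 with at least 5, and 926 to 1080 with 1 replicate left out. Counting means equal but for rounding as higher, a choice made after seeing the data, gave 944. limma's 52 higher calls became 170 on logit levels and ranged from 30 to 63 with 1 replicate left out, the 30 without wild-type replicate 1; 25 to 43 of the 52 were kept. The replicate number as a block gave 70 calls, 50 of them shared, and trend with robust moderation gave 78. Same-numbered replicates deviated together with correlations of 0.0372, 0.00489 and 0.04998, too low to pair them. The mean difference of 2.46 points was 2.70 weighted by length, 0.688 as a median over regions in each replicate and 11.2 in regions with at least 5 points, with 2.40 to 2.58 on leaving 1 replicate out. Separated regions numbered 148 to 222 with 1 replicate left out, which fewer replicates make easier (222, 202 and 206 without mutant replicates 1 to 3 and 159 without wild-type replicate 1), and 41 with a gap of at least 1 point. No other alternative moved a count by over 1.5 times. Depth is unknown, so levels of 0% in short regions cannot be told from few reads, and differences near 1 point have no counting interval.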
